A study of Mus musculus with 10 samples.

Results

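The 10 genes described here are immediate early genes, which neurons transcribe within minutes of synaptic activity without needing new protein synthesis first: Fos, Fosb, Junb, Egr1, Egr3, Npas4, Nr4a1, Arc, Dusp1 and Ier2. They were taken by symbol from the Ensembl identifiers of the count tables, where they are 10 of 48709 genes. All 10 had enough counts to be tested, among 16884 genes that did. RNA came from mouse hippocampal neurons in primary culture; the strain and the age of the animals are not given in the sources used here. Lipid nanoparticles were given to all cultures at day 10 in vitro, and RNA was isolated 48 hours later. The cargo was scramble RNA in the control group (control, n = 2 libraries), an anti-miR against miR-409-5p in 4 libraries (antimir409 in the labels) and an anti-miR against miR-501-3p in 4 others (antimir501). No untreated culture is among the samples, so every group carries a nanoparticle and an RNA cargo, and the labels name no stimulus of activity. An anti-miR is an antisense inhibitor of a microRNA. Whether replicates are separate cultures is not stated, so p-values reflect only how much these libraries differ, which may be technical.

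Calcium entering through synaptic receptors and channels activates kinases of the MAP kinase and CaM kinase pathways, which phosphorylate CREB and the ternary complex factors that sit with SRF on immediate early gene promoters. Most of the resulting transcripts encode transcription factors that then switch on later genes such as Bdnf. Arc instead encodes a postsynaptic protein, and Dusp1 encodes a phosphatase that turns MAP kinases off. The messengers are short-lived, partly through AU-rich elements in their 3' UTRs.

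The mature microRNAs that the inhibitors target are shown because a direct target should hold the complement of the seed, which is bases 2 to 8 and is in capitals. Both sequences are from RefSeq (GRCm38.p6). The genes lie at chr12:109743172-109743194 (Mir409, plus strand) and chrX:7241270-7241291 (Mir501, minus strand).
mmu-miR-409-5p: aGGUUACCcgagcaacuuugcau
mmu-miR-501-3p: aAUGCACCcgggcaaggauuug
Mature microRNAs are too short and lack the tail that this poly(A) method selects, so their loss was not checked.

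Among the 10 immediate early genes, 1 held a match to either seed in its longest annotated 3' UTR. Counted as a site was the complement of bases 2 to 8, or that of the seed without base 8 followed by A. Fos has the complement of bases 2 to 8 of miR-501-3p at position 53 of its UTR, in mm10 at chr12:85476511-85476517 on the plus strand, shown in capitals with the flanking bases.
Fos 3' UTR site: cccgagctGGTGCATtacagaga
The other 9 genes had 0 sites for miR-501-3p, and all 10 had 0 for miR-409-5p. Of 14212 tested genes with an annotated 3' UTR, 13.0% held a site for miR-501-3p and 9.85% a site for miR-409-5p. A match is a description of the sequence, not a measured binding site. The pentamer ATTTA, the core of AU-rich elements, was present in 8 of the 10 UTRs, all but those of Arc and Ier2, against 70.4% of all UTRs. The 10 UTRs were shorter, with a median of 785 bases against 1219. Per kilobase, the median was 2.15 pentamers against 1.32 over the tested genes, and 7 of the 10 were above the latter. Pooled over all bases, the values were 2.03 and 1.83. The longer TTATTTATT was found in Fos and Dusp1, against 8.37% of all UTRs.

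RefSeq promoter sequences (GRCm38.p6, 250 bases before to 50 after the start) matched 6 of the 10 genes, Fos, Fosb, Junb, Npas4, Nr4a1 and Dusp1; Egr1, Egr3, Arc and Ier2 had no entry. The half-site of the CREB element, TGACG or CGTCA on the other strand, was in all 6 windows, against 20.8% of 32851 promoters. Of 11952 tested genes with a promoter entry, 33.8% held it in any of their promoters, and later shares of tested genes are counted likewise. The half-site is shown in capitals for 4 of the 6 windows. Nr4a1 and Junb passed a test below and Fos and Npas4 did not, and the half-site is in both kinds.
Nr4a1, chr15:101266598-101266825, plus strand: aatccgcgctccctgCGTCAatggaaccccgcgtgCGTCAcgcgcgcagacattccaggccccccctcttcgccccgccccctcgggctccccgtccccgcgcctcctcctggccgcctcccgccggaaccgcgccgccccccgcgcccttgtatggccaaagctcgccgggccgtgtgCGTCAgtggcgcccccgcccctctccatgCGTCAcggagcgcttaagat
Junb, chr8:84978835-84978869, minus strand: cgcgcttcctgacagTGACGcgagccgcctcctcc
Fos, chr12:85473746-85473843, plus strand: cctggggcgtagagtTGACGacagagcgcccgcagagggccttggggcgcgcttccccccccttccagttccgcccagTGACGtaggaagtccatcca
Npas4, chr19:4990121-4990165, minus strand: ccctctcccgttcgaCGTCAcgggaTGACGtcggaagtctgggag
Nr4a1 held 4 half-sites, Fos and Npas4 held 2 each, and Junb held 1. The full palindrome TGACGTCA, whose ends overlap the half-sites, was in the Dusp1 window alone among the 6. It was in 1.79% of all promoters and 3.43% of tested genes. The EGR site GCGNGGGCG was in 2 windows (Fosb and Nr4a1), against 5.55% of all promoters and 12.2% of tested genes. TATAAA was in 2 (Fos and Junb), against 8.32% and 5.47%. The CArG box, to which SRF binds, was in 0 of the 6, against 1.63% and 1.58%, which says only that these letters are not in this window.

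The libraries held 22254788 to 32096808 counts in genes, of which the 10 immediate early genes took 4022 and 4082 in control, 2732 to 4066 under anti-miR-409-5p and 3126 to 3872 under anti-miR-501-3p. Defining neuronal markers were abundant in CPM (counts scaled to a common depth, by the trimmed mean of M values, TMM). The 7 pan-neuronal genes summed to 6281 and 6413 CPM in control, 6601 to 6956 under anti-miR-409-5p and 6448 to 6962 under anti-miR-501-3p. This sum, higher in both inhibitor groups, is mostly Map2 (1980 to 2506 CPM) and Stmn2 (1765 to 1958 CPM). Of the 7 genes, 3 were called higher and 3 lower in each comparison, with median log2 fold changes of 0.041 and 0.070. The 8 excitatory markers summed to 3806 and 3875, 3637 to 3712, and 3609 to 3797 CPM, so both inhibitor groups lay below control in this sum, which is mostly Camk2a (1925 to 2079 CPM) and Slc17a7 (1005 to 1223 CPM). Over the 8 genes the median log2 fold change was 0.099 in both comparisons, with 2 genes called higher and 1 called lower for the first inhibitor, against 4 and 2 for the second. The 8 astrocyte markers summed to 2249 to 2430 CPM over all libraries, the 8 microglial markers to 23.1 to 28.3 and the 8 of the oligodendrocyte lineage to 351 to 636, with no marker at 0 in all libraries. Control differed from both inhibitor groups in measures of the libraries themselves. The mitochondrial share of counts was 2.59% and 2.78% in control against 3.40% to 3.80% and 3.33% to 3.95%. The deviation of each gene's log2 CPM from its mean over the 10 libraries was also fitted against transcript GC content. Its slope per 10 percentage points was 0.203 to 0.272 in control, against -0.109 to 0.0384 and -0.131 to 0.00784. These slopes are relative to the mean of the libraries, so only the differences between libraries have meaning. No preparation date or batch is named in the labels. In bulk RNA, fewer cells of a type and less RNA per cell cannot be told apart.

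Per exonic length, the RNA of the immediate early genes was at low to middling levels. As the mean RPKM (CPM divided by exonic length in kilobases) over all 10 libraries, the order was Egr1 at 8.44 ± 0.393 (SD, n = 10), Junb at 7.02 ± 0.573, Ier2 at 5.75 ± 0.642, Egr3 at 4.04 ± 0.422, Fos at 3.61 ± 0.184, Arc at 3.20 ± 0.228, Nr4a1 at 3.10 ± 0.324, Dusp1 at 2.97 ± 0.286, Npas4 at 1.72 ± 0.166 and Fosb at 0.415 ± 0.0455. The highest was 20.3-fold above the lowest, and the median over all genes tested was 3.81 RPKM. Neighbours in this order overlapped in their ranges except at 3 steps: every library had Ier2 above the highest Egr3 value, Dusp1 above the highest Npas4 value and Npas4 above the highest Fosb value. Of 21 relatives in the AP-1, Egr and Nab, and Nr4a, Dusp and Ier families, 14 lay within the span of the 10 genes in control, 0.415 to 8.47 RPKM. Another 5 lay above it, from Nr4a3, a nuclear receptor related to Nr4a1, at 48.1 RPKM and Jun at 27.7 to Dusp6 at 10.6, and 2 lay below it, Egr2 at 0.344 and Batf at 0.024.

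**Figure D1:**
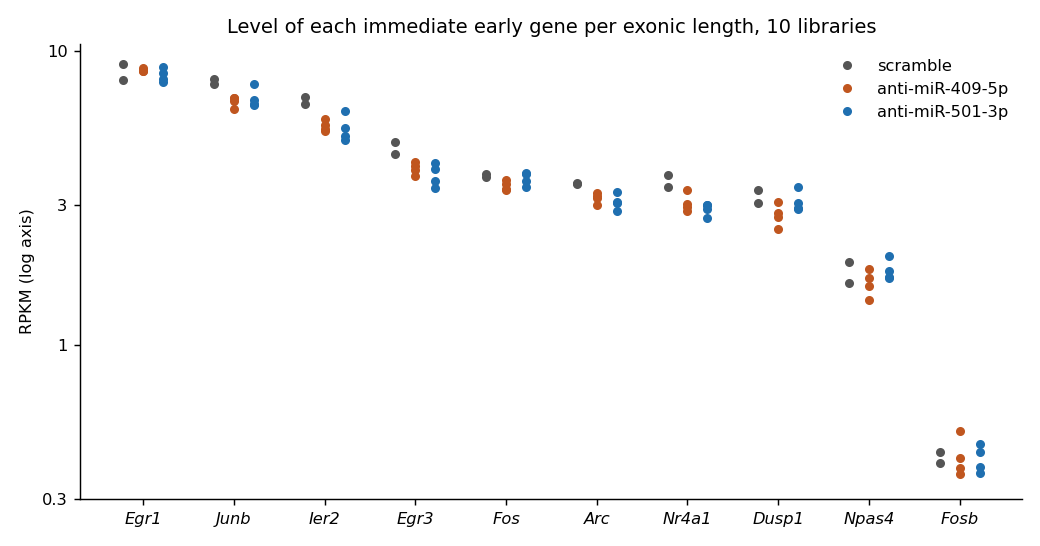
RPKM of each immediate early gene (log axis) in the 10 libraries, 1 point per library, coloured by group, genes ordered by their mean from Egr1 (8.44) to Fosb (0.415). The groups lie close together for every gene compared with the 20.3-fold span between genes.

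For each gene below, the position of the inhibitor libraries against both controls is given. The share of all tested genes separated from control is not given here, so such separation is not read as particular to these genes. Fos, Fosb and Junb encode subunits of AP-1, a dimeric transcription factor. Fos (mm10 chromosome 12, 85473890 to 85477273) had 8.96 and 8.79 CPM in the 2 control libraries, 7.88, 8.29, 7.94 and 8.56 under anti-miR-409-5p and 9.0, 9.0, 8.49 and 8.10 under anti-miR-501-3p. All 4 anti-miR-409-5p libraries were below both controls, while the anti-miR-501-3p libraries lay on both sides of them. Neither difference passed the test: the log2 fold change was -0.12 ± 0.08 (SE; 95% interval -0.29 to 0.06; edgeR adjusted p = 0.315) with anti-miR-409-5p and -0.037 ± 0.08 (-0.21 to 0.13; edgeR adjusted p = 0.772) under anti-miR-501-3p, the inhibitor of the microRNA whose seed complement it holds. With the dependence of counts on transcript GC content and length removed from each library, the Fos values were -0.032 ± 0.08 and 0.051 ± 0.08. Fosb (chromosome 7, 19302696 to 19310051) had the fewest counts, 60 to 83 per library, with 2.70 and 2.47 CPM in control, 2.39, 2.57, 3.18 and 2.28 under anti-miR-409-5p and 2.88, 2.41, 2.30 and 2.71 under anti-miR-501-3p. The 3 groups overlapped, with log2 fold changes of -0.0046 ± 0.16 (95% interval -0.33 to 0.32) and -0.0029 ± 0.16 (-0.33 to 0.33), so a change of about that width was not detectable at this depth. DESeq2 and the fit without a low-count filter gave Fosb values on the other side of 0, at most 0.0068, and removing the trend gave 0.12 ± 0.16 and 0.13 ± 0.16.

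Junb (chromosome 8, 84974484 to 84978718) had 17.7 and 18.4 CPM in control, 15.5, 15.9, 14.6 and 15.9 under anti-miR-409-5p and 17.8, 15.7, 14.99 and 15.2 under anti-miR-501-3p. It fell under anti-miR-409-5p, where every library was below both controls, by 0.22 ± 0.07 on the log2 scale (edgeR adjusted p = 0.0347). Under anti-miR-501-3p, 3 of 4 libraries were below both controls and the log2 fold change was -0.18 ± 0.07 (95% interval -0.34 to -0.03; edgeR adjusted p = 0.0648). With the GC and length trend removed in this way, the values were 0.037 ± 0.07 and 0.099 ± 0.07 (edgeR adjusted p = 0.853 and 0.445), so the direction turned. Junb shares 173 exonic bases with Prdx2 on the opposite strand, which had 4160 to 6099 counts, and the kit does not mark strand, so reads in the shared stretch cannot be told apart.

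Egr1 and Egr3 encode zinc finger transcription factors. Egr1 (chromosome 18, 34859823 to 34864984) was the most counted of the 10 genes, with 40.3 and 35.7 CPM in control, 38.2, 38.6, 38.2 and 39.2 under anti-miR-409-5p and 39.6, 35.1, 35.8 and 37.8 under anti-miR-501-3p. All 4 anti-miR-409-5p libraries lay between the controls. The log2 fold changes were 0.023 ± 0.06 (95% interval -0.10 to 0.14; edgeR adjusted p = 0.810) and -0.033 ± 0.06 (-0.16 to 0.09; edgeR adjusted p = 0.708). Removing the GC and length trend gave 0.16 ± 0.05 (edgeR adjusted p = 0.0629) and 0.12 ± 0.05 (edgeR adjusted p = 0.167).

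Egr3 (chromosome 14, 70077203 to 70082614) had 21.5 and 19.6 CPM in control, 18.4, 17.3, 16.6 and 17.8 under anti-miR-409-5p and 17.5, 18.3, 14.99 and 15.9 under anti-miR-501-3p. Every library of either inhibitor was below both controls. The fall in Egr3 on the log2 scale was -0.23 ± 0.08 in the anti-miR-409-5p group (edgeR adjusted p = 0.0388) and -0.30 ± 0.08 in the anti-miR-501-3p group (edgeR adjusted p = 0.00749). With the GC and length trend removed, the values were -0.19 ± 0.07 (edgeR adjusted p = 0.144) and -0.25 ± 0.07 (edgeR adjusted p = 0.0299), the latter the only call among the 10 genes in that fit. That call was lost without control replicate 1, where the value was -0.18 ± 0.09 (edgeR adjusted p = 0.460), and held without control replicate 2, where it was -0.31 ± 0.09 (edgeR adjusted p = 0.0440).

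Npas4 encodes a neuron-specific transcription factor that responds to calcium influx, and Nr4a1 encodes an orphan nuclear receptor. Npas4 (chromosome 19, 4984355 to 4990316) had 6.72 and 7.92 CPM in control, 5.87, 7.50, 6.99 and 6.56 under anti-miR-409-5p and 7.02, 7.37, 7.0 and 8.27 under anti-miR-501-3p. Under anti-miR-409-5p 2 of 4 libraries were below both controls, and under anti-miR-501-3p 1 of 4 was above both. The log2 fold changes were -0.12 ± 0.11 (95% interval -0.35 to 0.11; edgeR adjusted p = 0.443) and 0.018 ± 0.11 (-0.21 to 0.25; edgeR adjusted p = 0.922), or 0.023 ± 0.11 and 0.18 ± 0.11 with the GC and length trend removed. Nr4a1 (chromosome 15, 101254269 to 101274795) had 13.2 and 12.1 CPM in control, 11.8, 10.4, 10.03 and 10.6 under anti-miR-409-5p and 10.5, 10.5, 9.45 and 10.1 under anti-miR-501-3p. Every inhibitor library was below both controls, and Nr4a1 fell by 0.24 ± 0.08 (edgeR adjusted p = 0.0351) and by 0.31 ± 0.08 (edgeR adjusted p = 0.00707) on the log2 scale. Neither call held with the GC and length trend removed, where the values were -0.090 ± 0.08 (edgeR adjusted p = 0.629) and -0.15 ± 0.08 (edgeR adjusted p = 0.277).

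Arc, whose protein acts at the postsynapse in the trafficking of AMPA receptors, lies on chromosome 15 (74669083 to 74672570). Its 2 control libraries had 10.8 and 10.9 CPM, against 9.79, 9.63, 9.17 and 10.1 under anti-miR-409-5p and 9.34, 8.73, 9.29 and 10.1 under anti-miR-501-3p. All 8 inhibitor libraries were below both controls, but neither comparison passed: the log2 fold changes were -0.16 ± 0.08 (95% interval -0.33 to 0.01; edgeR adjusted p = 0.140) and -0.21 ± 0.08 (-0.38 to -0.04; edgeR adjusted p = 0.0515). With the GC and length trend removed they were 0.0063 ± 0.08 and -0.021 ± 0.08.

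Dusp1 (chromosome 17, 26505590 to 26562128), the MAP kinase phosphatase, had 11.2 and 10.02 CPM in control, 9.31, 10.1, 9.03 and 8.18 under anti-miR-409-5p and 11.4, 10.1, 9.64 and 9.56 under anti-miR-501-3p. Dusp1 shares 11 exonic bases with Ergic1 on the opposite strand. Both groups overlapped control, although 3 of 4 anti-miR-409-5p libraries were below both, with log2 fold changes of -0.21 ± 0.10 (95% interval -0.41 to -0.01; edgeR adjusted p = 0.114) and -0.060 ± 0.10 (-0.26 to 0.14; edgeR adjusted p = 0.677). With the GC and length trend removed, the Dusp1 values were -0.063 ± 0.08 and 0.091 ± 0.08, the latter on the other side of 0. Ier2 (chromosome 8, 84661331 to 84662852), a growth factor-induced gene whose product is found in the nucleus, had 9.996 and 10.6 CPM in control, 8.52, 8.93, 8.26 and 8.15 under anti-miR-409-5p and 9.52, 8.29, 7.57 and 7.80 under anti-miR-501-3p. Every inhibitor library was below both controls, and Ier2 fell by 0.28 ± 0.09 (edgeR adjusted p = 0.0305) and by 0.31 ± 0.09 (edgeR adjusted p = 0.0151) on the log2 scale. With the GC and length trend removed, the Ier2 values were -0.028 ± 0.08 (edgeR adjusted p = 0.919) and -0.044 ± 0.08 (edgeR adjusted p = 0.833).

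**Figure D2:**
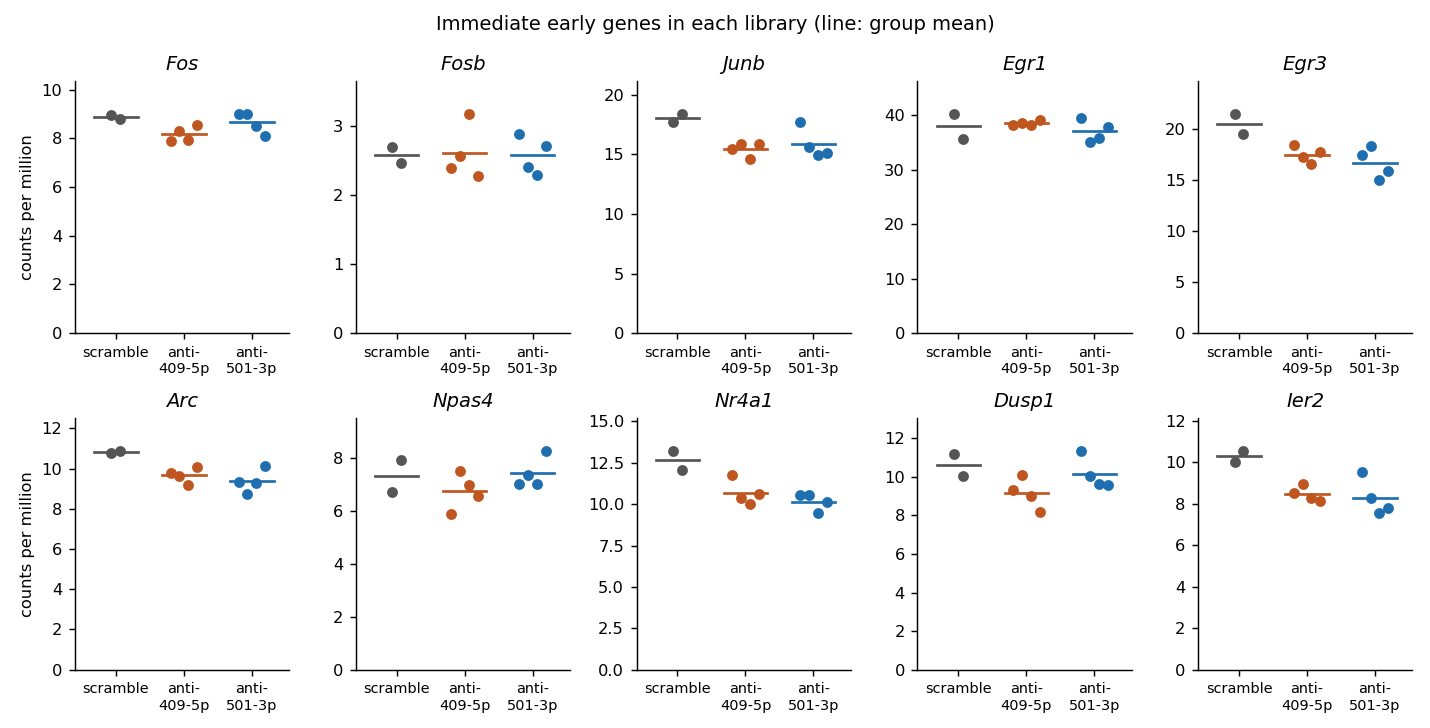
CPM of each immediate early gene in each library, 1 point per library and a line at the group mean, with every axis starting at 0. All 8 inhibitor libraries lie below both control libraries for Egr3, Arc, Nr4a1 and Ier2, whereas Fosb, Egr1, Npas4 and Dusp1 overlap control in both groups. The share of all tested genes separated in this way is not given here, so separation is not read as particular to these genes.

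Under anti-miR-409-5p, 4 of the 10 genes fell (Junb, Egr3, Nr4a1 and Ier2) and 0 rose. Of all 16884 genes, 12.2% were called lower, 15.6% higher and 27.8% either way; scaling by total counts in place of TMM turned 2062 lower and 2634 higher genes into 3209 and 2193. The median log2 fold change of the 10 genes was -0.19, against -0.012 over all genes tested. The calls were close to the threshold: DESeq2's Wald test called 0 of the 10, with adjusted p of 0.0528 to 0.0715 for these 4 genes, while calling 12.6% of its genes lower. Leaving out control replicate 1, control replicate 2 or anti-miR-409-5p replicate 3 also left 0, while 0.977%, 6.45% and 6.72% of all genes, in that order, were called lower. Without anti-miR-409-5p replicate 2, Ier2 alone was called, with 9.97% of all genes called lower. Without its replicate 4, Junb alone was called, with 7.71% of all genes lower. Without anti-miR-501-3p replicate 2, which enters through the shared estimate of spread, Egr3 and Ier2 were called, with 9.53% of all genes lower.

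Under anti-miR-501-3p, 3 of the 10 genes fell (Egr3, Nr4a1 and Ier2) and 0 rose, where 15.4% of all genes were called lower, 17.6% higher and 33% either way (2605 and 2974 genes, or 3779 and 2452 with scaling by total counts). The median of the 10 genes was -0.12 and that of all genes -0.012. DESeq2 called the same 3 genes, with adjusted p of 0.00669 to 0.0297, and called 15.6% of its genes lower. Without control replicate 1, 0 of the 10 were called: Egr3 had -0.22, Nr4a1 -0.23 and Ier2 -0.33, with edgeR adjusted p of 0.181, 0.164 and 0.0809, and 1.57% of all genes were called lower. Without control replicate 2, Egr3 and Nr4a1 were called and Ier2 was not (-0.26, edgeR adjusted p = 0.126), with 10.6% of all genes called lower. Junb joined the calls without anti-miR-501-3p replicate 1 (edgeR adjusted p = 0.0118), where 16.8% of all genes were called lower, and Arc without its replicate 4 (edgeR adjusted p = 0.0341), where 11.3% were. Scaling by the upper quartile or by total counts added both, to make 5, with 21.4% and 22.4% of all genes called lower. The 2 comparisons use the same control libraries, so a control library that is high for a gene lowers its value in both.

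Across all genes, the fold change followed the GC content of the transcript, and the immediate early genes are GC-rich. Their longest coding transcripts held 51.3% to 62.6% GC (median 57.1%), each above the median of 49.8% over the tested genes. The 5 genes between 55% and 60% GC lie in a bin where the median log2 fold change of all genes was -0.16 under anti-miR-409-5p and -0.18 under anti-miR-501-3p, and where 34.5% and 42.9% of genes were called lower. In the bin from 60% to 65%, which holds Junb and Ier2, 49.4% and 56% were called lower. Egr3, at 51.3% GC, had values below the lower quartile of its bin (-0.16 and -0.17), in which 11.2% and 16% of genes were called lower. Nr4a1 was also below the lower quartile of its bin in both comparisons (-0.23 and -0.24). Fosb and Egr1 were above the upper quartile of the same bin in both (-0.10 and -0.11).

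**Figure D3:**
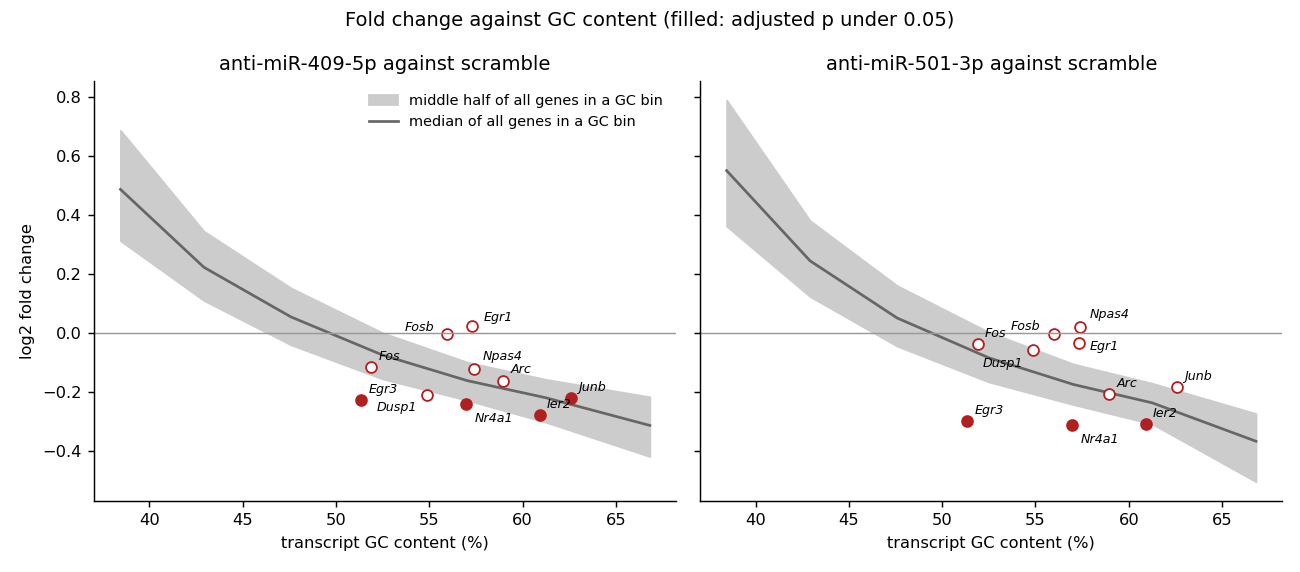
Log2 fold change against control (y) by transcript GC content in percent (x) for both inhibitors; the line and band give the median and the middle 50% of all tested genes in GC bins, and points are the immediate early genes, filled where the edgeR adjusted p was under 0.05. Fos, Junb, Arc, Npas4 and Ier2 lie in the band under anti-miR-409-5p, and Dusp1 lies below it there. Egr3 and Nr4a1 lie below it in both panels.

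With that dependence on GC content and length taken out, 0 of the 10 genes were called under anti-miR-409-5p, where 2.18% of all genes were called lower, and 1, Egr3, under anti-miR-501-3p, where 3.38% were. The medians of the 10 genes became -0.011 and 0.071. Of the 10, 5 and 6 had positive values. With 1 surrogate variable, estimated from normalized counts, as a covariate 0 of the 10 were called in either comparison, and 0.954% and 0.243% of all genes were called lower. This rested on how the variable was estimated: from CPM, which was tried after the data were seen, it left 0 calls under anti-miR-409-5p but 3 (Egr3, Arc and Nr4a1) under anti-miR-501-3p, where 8.32% of all genes were called lower. Among the values of all genes tested, Egr3 stood at the percentile 10.4 and 7.33 with the trend removed, and at 27.2 and 19.7 with the surrogate variable from normalized counts. Whether the removed trend belongs to the libraries or to the cells was not tested.

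**Figure D4:**
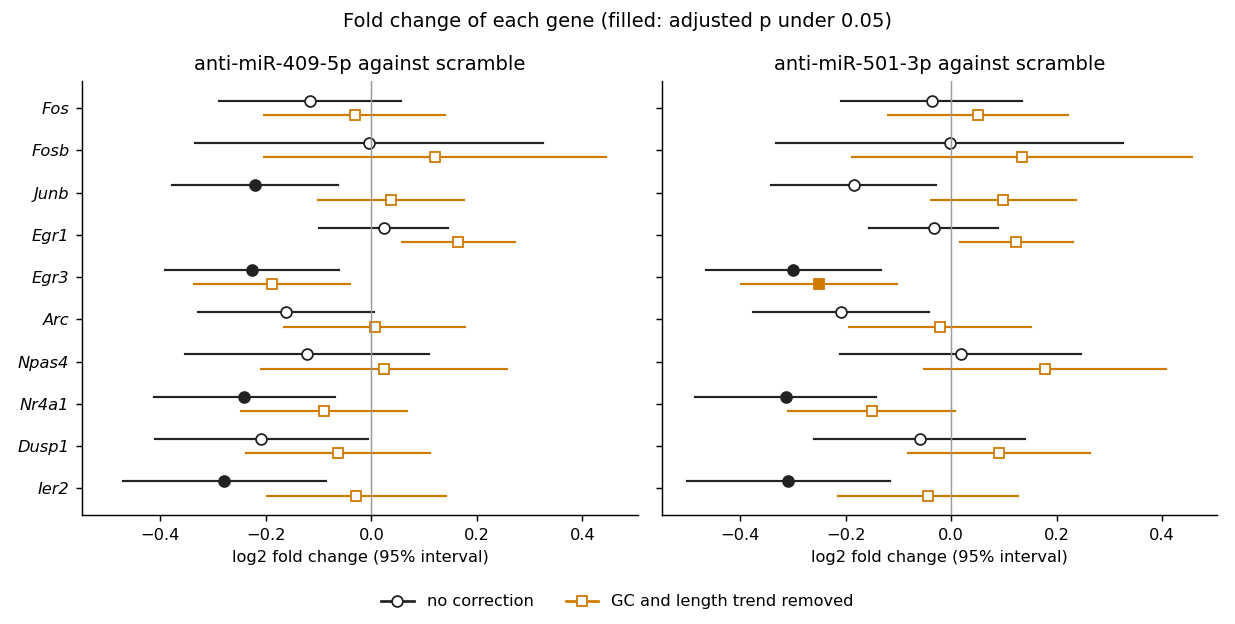
Log2 fold change against control with its 95% interval for each immediate early gene, without correction (circles) and with the trend on GC content and length removed (squares); filled symbols passed an edgeR adjusted p of 0.05. The 4 and 3 calls without correction become 0 under anti-miR-409-5p and 1, Egr3, under anti-miR-501-3p.

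Compared directly, the inhibitors differed for 0 of the 10 genes, and 0% of all 16884 genes were called in edgeR's test. Over all genes 992 had an unadjusted p under 0.05, none of them among the 10. DESeq2 called 3 genes, and the closing section gives alternatives that called more, such as the replicate number as a block. The values for anti-miR-409-5p against anti-miR-501-3p ran from -0.15 for Dusp1 (95% interval -0.32 to 0.02) to 0.073 for Nr4a1 (-0.07 to 0.22). Npas4 had -0.14 (-0.33 to 0.05), and Fos, with its miR-501-3p seed match, -0.079 (-0.22 to 0.06). The intervals leave room for differences of about these sizes. Junb was called under anti-miR-409-5p and not under anti-miR-501-3p, but its direct value was -0.036 (-0.17 to 0.09; edgeR adjusted p = 0.949).

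Other genes of the same families and pathways are given by list, beside the shares of all genes called. Those were 15.6% (higher) and 12.2% (lower) with the miR-409-5p inhibitor, and 17.6% (higher) and 15.4% (lower) with the other. Removing the GC and length trend made these shares 3.2% and 2.18%, and 4.64% and 3.38%. Of 7 other AP-1 genes tested, 3 fell under anti-miR-409-5p (Jun, Jund and Mafk) and 2 under anti-miR-501-3p (Jund by 0.49 ± 0.12 and Jun by 0.16 ± 0.05; edgeR adjusted p = 0.0102 and 0.0225), and 0 rose. Of 4 other Egr and Nab genes, Egr4 and the corepressor gene Nab2 fell and Nab1 rose under both inhibitors. Egr4 fell by 0.30 ± 0.10 and 0.41 ± 0.10 (edgeR adjusted p = 0.0312 and 0.00437). Of 9 other Nr4a, Dusp and Ier genes, Nr4a3 rose in both, by 0.18 ± 0.05 and 0.17 ± 0.05 (edgeR adjusted p = 0.00673 and 0.00754), opposite to Nr4a1, while Ier5 and Ier3 fell under anti-miR-409-5p and Dusp4 under anti-miR-501-3p. With the GC and length trend removed, 0 of the AP-1, Egr and Nab genes were called, and Nr4a3, the only call among the 9, remained higher, by 0.12 ± 0.03 in each (edgeR adjusted p = 0.0371 and 0.0310).

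Among 23 other rapid activity genes, 5 rose and 3 fell under anti-miR-409-5p and 6 rose and 3 fell under anti-miR-501-3p. With the trend removed, 1 was called higher and 1 lower, and 2 higher and 0 lower. Arf4, a small GTPase gene, rose by 0.35 ± 0.04 and 0.41 ± 0.04 (edgeR adjusted p = 3.9e-05 and 5.9e-06), and by 0.20 ± 0.03 and 0.23 ± 0.03 with the trend removed (edgeR adjusted p = 6.2e-04 and 8.0e-05). Of 21 genes listed as later activity genes, 7 rose and 1 fell under anti-miR-409-5p, and 8 rose and 2 fell under anti-miR-501-3p. With the trend removed, 0 were called higher and 3 lower for anti-miR-409-5p, so its excess of higher calls did not hold. For anti-miR-501-3p, 4 were called higher and 3 lower, where 4.64% and 3.38% of all genes were. Homer1, a postsynaptic scaffold gene, rose by 0.40 ± 0.06 and 0.42 ± 0.06 (edgeR adjusted p = 2.3e-04 and 9.3e-05). Its transcript holds 36.9% GC, and with the trend removed it was called lower instead, at -0.19 ± 0.04 and -0.25 ± 0.04 (edgeR adjusted p = 0.00693 and 3.6e-04). Bdnf, the neurotrophin gene, rose by 0.36 ± 0.06 and 0.32 ± 0.06 (edgeR adjusted p = 3.9e-04 and 6.3e-04), and at 40.9% GC was not called in either comparison after the correction.

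Of 28 upstream regulators tested, 6 rose and 6 fell under anti-miR-409-5p, and 5 rose and 10 fell under anti-miR-501-3p. With the trend removed, 4 were called higher and 0 lower, and 3 higher and 1 lower, so nearly all the lower calls were lost. The transcription factor genes Creb1 and Mef2a and the kinase gene Camk4 rose in both, Creb1 by 0.53 ± 0.07 and 0.56 ± 0.07 (edgeR adjusted p = 2.1e-04 and 9.0e-05). With the trend removed, Camk4 was still called higher, at 0.33 ± 0.06 and 0.32 ± 0.06 (edgeR adjusted p = 0.00918 and 0.00829), as was Mef2a, at 0.20 ± 0.04 and 0.21 ± 0.04 (edgeR adjusted p = 0.00123 and 4.7e-04), while Creb1 was not. Of 13 genes of heat shock and cell stress, 1 rose and 4 fell under anti-miR-409-5p and 2 rose and 4 fell under anti-miR-501-3p; among them Atf4 fell by 0.18 ± 0.04 and 0.15 ± 0.04 (edgeR adjusted p = 0.00595 and 0.0106). With the trend removed, 0 of these 13 were called higher and 2 and 1 lower, and Atf4 was not called, at -0.028 ± 0.04 and -0.0048 ± 0.04 (edgeR adjusted p = 0.778 and 0.966).

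Within groups, the immediate early genes varied together only in part. Across the 10 libraries, Pearson's r of the deviations of log2 CPM from the group mean had a median of 0.251 over the 45 pairs, with 31 pairs positive, from -0.60 for Npas4 and Nr4a1 to 0.89 for Junb and Ier2; the median over all pairs of tested genes was 0. These values share libraries and are descriptions. Against the mean of the other 9 genes, Ier2 had the highest r at 0.892 and Npas4 the lowest at 0.0023. These r values use log2 CPM over all 10 libraries with the differences between groups left in, so they are not within-group values. The variance between replicates relative to that of counting alone was 1.45 at the median of the 10 genes, from 0.428 for Fos to 2.60 for Egr1. The median of all genes tested was 1.69. Over the 6815 tested genes within the 10 genes' range of mean log2 CPM it was 1.55, and 6 of the 10 were below that.

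The genes whose pattern over the 10 libraries was most like the mean of the 10 immediate early genes were Rnf113a1 (r = 0.982), Usp35 (0.976), Nop53 (0.969), Cdc42bpb (0.967) and Endog (0.966). Their transcripts held 51.0% to 64.3% GC, also above the median of all tested genes, and all 5 were called lower in both comparisons. The mean profile and these genes share the step between control and both inhibitor groups.

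In the authors' deposited table for anti-miR-501-3p, Egr3 (adjusted p = 0.0144) and Nr4a1 (0.0247) of the 10 genes had an adjusted p under 0.05, and Ier2 had 0.0563; of the genes with an adjusted p in that table, 33% were under 0.05 in either direction. In the authors' deposited table for anti-miR-409-5p, 0 of the 10 did, the lowest being Egr3 at 0.0605, Junb at 0.0774 and Ier2 at 0.0791, where 28.8% of the genes with an adjusted p were under 0.05.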

How the data were processed

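Poly(A) RNA of 10 libraries, prepared by TruSeq RNA v2 chemistry, was read as 50 bp single ends on a HiSeq2000, per the labels' protocols. The submitters' processing notes name the build mm10 and the tools STAR 2.5.2b, Subread 1.5.1, featureCounts and FastQC 0.11.5; the annotation release and strand setting are not given in the sources used here. The deposited count tables hold raw counts per Ensembl gene. The authors' deposited comparison tables give log2 fold changes, p-values and adjusted p-values with the column names of DESeq2, and score columns (the Wald statistic), per the file headers; their normalized signal columns deposited per library were not used.

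Symbols (48349 of 48709 identifiers), coordinates and transcripts came from the GENCODE annotation of GRCm38. Raw counts were filtered with filterByExpr and tested with edgeR 4.0.16 in R 4.3.3 (TMM, robust quasi-likelihood, 3 groups, no covariate, two-sided) at a Benjamini-Hochberg adjusted p of 0.05 over 16884 genes. The code was tested on simulated data. CPM and RPKM (CPM per kilobase of exon) are values of this re-analysis. The GC and length trend was fitted in each library by splines with 5 degrees of freedom and entered as an offset (99.7% of genes had values). Alternatives used DESeq2 1.42.0, sva 3.50.0, other scalings, no filter, 2 groups, the replicate number as a block, and each library left out. Replicate libraries differed by more than counting noise, so none was merged. The genes, the lists and the tests were chosen with earlier results of these data known. All 10 immediate early genes are named, and in other lists at most the 4 genes of smallest p per list and comparison.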

Additional observations from a re-analysis of the deposited data

How the results depend on the processing

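Each gene's value was recomputed under 10 alternatives and with each of 10 libraries left out, and 3 alternatives were added after the data were seen (a surrogate variable estimated from CPM, and the trend removed without either control). Egr3 had negative values against control in all of them, and Nr4a1 and Ier2 in all 20 computed for each. The Ier2 values came as near 0 as -0.0089 under anti-miR-409-5p and -0.021 under anti-miR-501-3p. In all of these fits, the direct comparison of the inhibitors called 0 of the 10 genes. The number called under anti-miR-409-5p, 4, became 0 with DESeq2, the GC and length trend removed, either surrogate variable, and the trend removed without control replicate 1 or 2. Under anti-miR-501-3p, 3 became 5 with upper-quartile scaling or scaling by total counts, 1 with the trend removed (also without control replicate 2) 0 with the surrogate variable from normalized counts (3, namely Egr3, Arc and Nr4a1, with that from CPM) and 0 with the trend removed without control replicate 1. Leaving out 1 library gave 0 to 4 calls in each comparison with control. All genes called, 4696 and 5579, became 908 and 1354 with the trend removed, 1097 and 810 with the surrogate variable (1017 and 3637 when estimated from CPM), 1302 and 1800 without control replicate 1, and 157 and 336 (542 and 996) with the trend removed without control replicate 1 (or 2). For these changes the cause was not tested.

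The replicate numbers were shared between groups, but deviations of same-numbered libraries correlated at 0.0283 to 0.174, with 3 of 8 pairs over 0.1, and the labels do not say what a number marks, so the numbers were not taken to pair the libraries. All 8 correlations were positive and 7 of 10 libraries were closest to a library of their own number, a hint of pairing from the data and not from the design. The replicate block called 0 of the 10 genes under anti-miR-409-5p, although 4886 genes in all were called. Under anti-miR-501-3p it called 4 (Egr3, Arc, Nr4a1 and Ier2). The shares of all genes called lower with the block, alone or with the trend removed, are not given here. The counts among the 10 genes are therefore not set against them. In the direct comparison the genes called, 0, became 252 with the block, 182 with block and trend removal, 42 without the low-count filter, 3 with DESeq2 and at most 13 under any other alternative. The block called none of the 10 there; with the trend removed as well it called 0 and 0 of the 10 against control. With the block, Dusp1 and Npas4 had 0.022 and -0.0046 under anti-miR-501-3p. With block and trend removal, Dusp1, Egr1, Fos, Fosb and Junb had 0.149, 0.0979, 0.0615, 0.105 and 0.0893 there, and Fosb and Junb 0.0923 and 0.0242 under anti-miR-409-5p.

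Signs of log2 values turned as follows, including that of Junb, which had been called lower under anti-miR-409-5p at -0.22. With the trend removed, Arc, Fosb, Junb and Npas4 had 0.0063, 0.120, 0.0368 and 0.0235 under anti-miR-409-5p, and Dusp1, Egr1, Fos, Fosb and Junb had 0.0909, 0.124, 0.0515, 0.134 and 0.0992 under anti-miR-501-3p. The surrogate variable gave Dusp1, Egr1, Fos and Npas4 0.193, 0.0525, 0.0096 and -0.173 under anti-miR-501-3p, and Ier2 -0.0075 between inhibitors. Fosb had, under anti-miR-409-5p, under anti-miR-501-3p and between them, 0.0068, 0.0021 and 0.0047 with DESeq2 and 6.4e-04, 4.3e-04 and 2.1e-04 without the filter. With DESeq2's size factors Fosb had 0.0029 and 0.0032 against control, with only the 2 groups compared 0.0027 under anti-miR-501-3p, and with total counts 0.0027 between inhibitors. Upper-quartile scaling and total counts gave -0.0172 and -0.0219 for Egr1 under anti-miR-409-5p and -0.023 and -0.0308 for Npas4 under anti-miR-501-3p.

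With 1 library left out, values against control under anti-miR-409-5p ran from -0.0554 to 0.126 for Egr1, -0.0901 to 0.0732 for Fosb and -0.219 to 0.010 for Npas4. Under anti-miR-501-3p they ran from -0.131 to 0.0316 for Dusp1, -0.113 to 0.0683 for Egr1, -0.0525 to 1.1e-04 for Fos, -0.0613 to 0.0739 for Fosb and -0.0806 to 0.149 for Npas4. Between inhibitors they ran from -0.0919 to 0.0586 for Fosb, -0.0099 to 0.104 for Ier2 and -0.062 to 0.0238 for Junb. Where control kept 1 library, it was assumed to vary like the other groups. At 60 to 83 counts, Fosb has the widest intervals of the 10 genes.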
